A study of Mus musculus with 16 samples.

Results

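The genes of the IL-10 axis and of alternative activation were described in macrophages and microglia sorted from mouse brain: Il10, its receptor genes Il10ra and Il10rb, the downstream genes Stat3 and Socs3, the receptor gene Il4ra, and the effector gene Retnla. They were taken by symbol and are 7 of 18580 genes. CD163KO mice, which lack the scavenger receptor CD163 in all cells, and WT (C57BL/6N) littermates of both sexes, 12 weeks old at surgery, received α-syn PFF (pre-formed fibrils) or α-syn MONO (the monomeric protein, the control) in the striatum of both hemispheres, and cells were taken 2 months p.i. No group without an injection was analysed here. Microglia (CD11b+, CD45 low to intermediate) and macrophages (CD11b+, CD45 high) were sorted, and the macrophage gate also takes neutrophils and NK cells by the study's own description. RNA was read by SMART-seq2, which copies full-length mRNA from little material.

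Each of the 16 tables analysed here comes from one pairing of population and sex with genotype and treatment. The sources used here do not say whether a table holds 1 mouse, 1 of the triplicates or a pool. The study left out CD163KO males given MONO, and both libraries of that combination stay out of the tests here, so that 7 libraries of each population remain and a test on one factor takes libraries that differ in the other factors as its replicates. Levels are given as FPKM, which corrects a read number for transcript length and for library depth.

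IL-10 is a cytokine that restrains inflammatory gene expression in myeloid cells. It binds a receptor made of the chains encoded by Il10ra, which binds the ligand, and Il10rb, which is shared with other cytokines, and the receptor signals through the transcription factor STAT3, of which Socs3, a feedback inhibitor of cytokine signalling, is a classic target. IL-4 and IL-13 act through the chain encoded by Il4ra and STAT6, and in mouse macrophages they induce Retnla (RELMα), a usual marker of alternative activation. CD163 itself is induced by IL-10 in macrophages.

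Estimated counts summed to between 8648751 and 21433841 per library. The labelled populations carried their markers: 12 microglia genes summed to 17736 to 43448 FPKM in microglia but to 955.6 to 1779 FPKM in macrophages. For 12 border-associated macrophage genes the macrophages reached 1885 to 5241 FPKM and the microglia 29.0 to 171.0. Neutrophil genes were high in the macrophage libraries, with a sum over 12 genes between 22182 and 134672 FPKM against 1179 to 2876 in microglia, and all 12 were at 1 FPKM or more in every macrophage library tested. The deleted gene Cd163 had at most 1 count in CD163KO macrophages and 748 to 5275 in WT macrophages, whereas in microglia it had 46 and 101 counts in female WT, 5 to 23 in CD163KO and 0 and 1 in male WT, so that the libraries labelled male WT went against the genotype labels there. Among the libraries labelled female, 4 Y-linked genes had 799 counts in CD163KO MONO microglia and at most 2 in each of the others. The male WT PFF libraries stood apart, since the 10 most abundant genes took 16.5% of the counts in macrophages and 58.7% in microglia, against 39.7% to 64.0% and 13.5% to 16.4% in the other libraries tested. The results below are therefore given on FPKM and on TMM scaling, which adjusts for such abundant genes, and without this combination where it matters.

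The promoter windows of Socs3 and Retnla, both of which differed between the populations, are shown because they hold the spaced half-sites that STAT proteins bind. Windows of 250 bases before the start site were searched on GRCm38.p6 (RefSeq), and the tables held one for 4 of the 7 members (Stat3, Socs3, Il4ra and Retnla). Capitals mark TTCNNNGAA in Socs3, starting 154 bases before the start site, and TTCNNNNGAA in Retnla, starting 145 bases before it. Both motifs are their own reverse complement and do not overlap each other. Of all 32851 windows, 7.02% held TTCNNNGAA and 5.85% held TTCNNNNGAA, and the windows of Stat3 and Il4ra held neither of these letters. Only the bases before the first exon that GENCODE vM21 gives for the gene in the window are printed. The Socs3 stretch lies at chr11:117969452-117969616 on the minus strand, within the span that RefSeq gives the gene (117966079 to 117970336), and the Retnla stretch at chr16:48842359-48842550 on the plus strand. A match is a description of the letters and not a measured binding site.
Socs3: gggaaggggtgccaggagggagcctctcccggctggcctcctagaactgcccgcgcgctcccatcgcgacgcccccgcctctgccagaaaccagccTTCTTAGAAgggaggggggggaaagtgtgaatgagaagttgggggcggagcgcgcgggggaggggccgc
Retnla: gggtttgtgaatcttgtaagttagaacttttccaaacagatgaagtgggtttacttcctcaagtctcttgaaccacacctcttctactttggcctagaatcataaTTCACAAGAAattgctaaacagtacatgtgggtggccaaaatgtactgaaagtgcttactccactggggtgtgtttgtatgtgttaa

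The populations differed in the ligand, in the ligand-binding receptor chain, in the feedback gene and in Retnla. By edgeR's quasi-likelihood test with the combination as a block, adjusted over 12304 genes, Il10ra and Socs3 passed an adjusted p of at most 0.05 and a log2 fold change of at least 1, both higher in microglia, out of the 5 members that were abundant enough to be tested in either population alone. Il10 and Retnla also passed, higher in macrophages, but they met the filter of 1 CPM in at least 3 libraries through the macrophages alone (in microglia Il10 was at 0.053 CPM or less and Retnla at 1.58 or less), so that they had to differ and their tests are given as a description. Of all genes tested, 7.26% were called higher in microglia and 12.1% lower, and the median log2 fold change of all genes was 0.31. These shares depend on the scaling, since limma on log2(FPKM + 1) called 5143 genes higher and 594 lower. In these bulk samples, fewer cells of a type and less RNA per cell cannot be told apart.

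**Figure D1:**
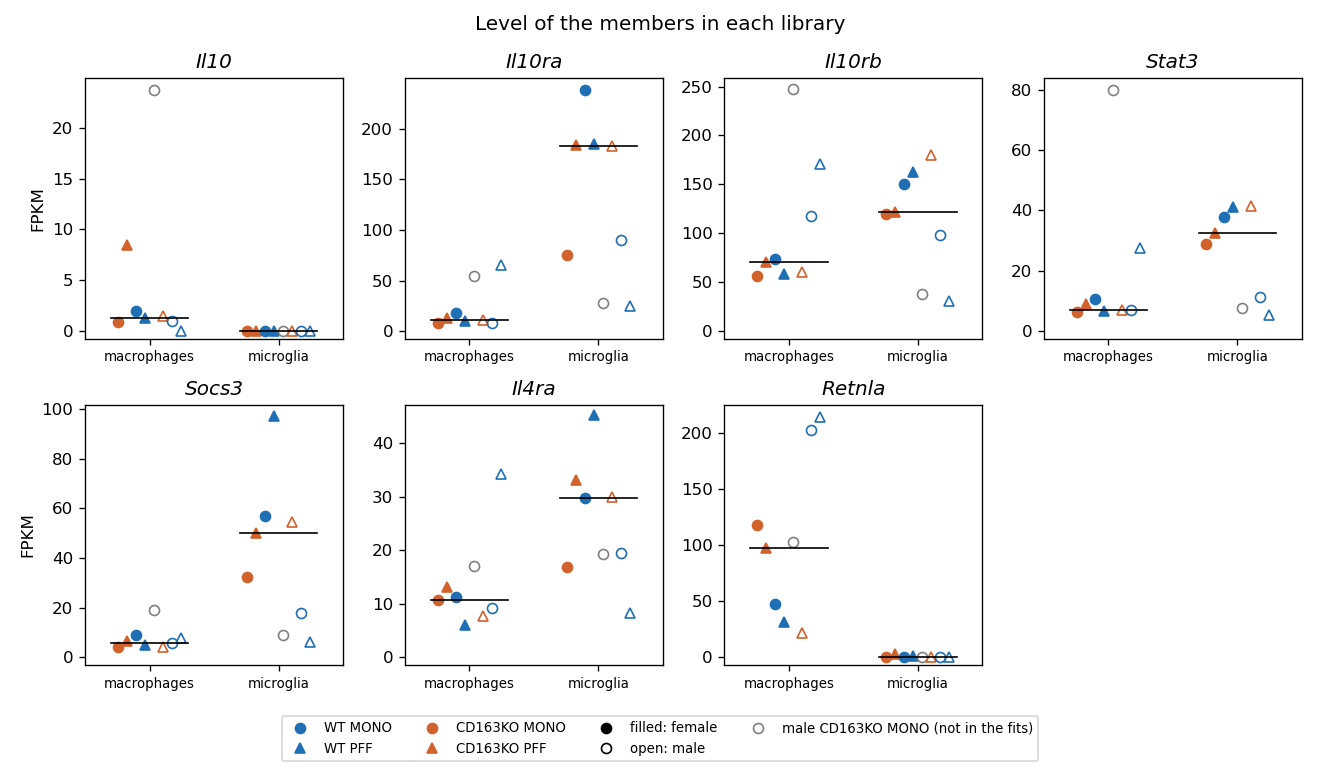
FPKM of the 7 members in each library (vertical axes, linear, a scale for each gene), by population; colour gives the genotype, shape the treatment, filled symbols are females and open symbols males, grey marks the male CD163KO MONO libraries, and lines are medians over the other 7. Il10 and Retnla lie at or near 0 in microglia, and Il10ra and Socs3 are higher in microglia in all combinations but male WT PFF and the untested male CD163KO MONO.

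Il10 (chr1:131019845-131024970), the ligand, was found almost only in macrophages and at a low level. In macrophages of females it was at 2.02 FPKM in WT MONO, 1.33 in WT PFF, 0.84 in CD163KO MONO and 8.46 in CD163KO PFF. In macrophages of males it was at 0.95 FPKM in WT MONO and 1.47 in CD163KO PFF, and it was not listed in WT PFF, which was set to 0. The WT PFF library held 8378 genes above 0, against 11272 to 12992 in the other macrophage libraries tested. Whether a low gene was missed there was not tested. Of these 7 libraries, female CD163KO PFF was the highest and male WT PFF the lowest. These levels rest on 0 to 128 counts a library, 274 in all. In microglia a single count was found over the 7 libraries, in male WT PFF (0.04 FPKM). Relative to the summed totals, the macrophage level was 235-fold the microglia level, with an exact 95% interval from 41.8 to 9317 that covers counting error only, since PCR copies count as separate reads. Without female CD163KO PFF, which held 128 of the 274 counts, it was 116-fold (20.5 to 4616). Without male WT PFF the microglia had 0 counts, and the interval then starts at 61.0 and has no upper bound. The fitted log2 fold change (microglia against macrophages) was -8.28 ± 2.12 (SE, adjusted p = 0.0177), a size that depends on the prior count because microglia are near 0. Macrophages were above microglia in 6 of 7 combinations. When 1 combination was left out in turn, the adjusted p lay between 0.0032 and 0.0651. Leaving out female CD163KO MONO (0.0525), female CD163KO PFF (0.0651), female WT MONO (0.0516), female WT PFF (0.0591) or male CD163KO PFF (0.0574) ended the call.

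Il10ra (chr9:45253837-45269149), the chain that binds IL-10, had the highest median of the members in microglia. In microglia labelled female it was at 238.48 FPKM in WT MONO, 185.04 in WT PFF, 74.96 in CD163KO MONO (the library with Y-linked counts) and 184.47 in CD163KO PFF. In microglia of males it was at 90.53 FPKM in WT MONO, 24.87 in WT PFF and 183.16 in CD163KO PFF. In macrophages it ranged from 8.28 to 17.93 FPKM in 6 libraries and reached 65.69 in male WT PFF. Among the libraries tested, the populations did not overlap on FPKM but for male WT PFF, in which the order was turned. After TMM scaling Il10ra was higher in microglia in 7 of 7 combinations, by 0.24 to 2.26 on the log2 scale, and the fitted log2 fold change was 1.63 ± 0.28 (SE, adjusted p = 0.00156). The call held under every alternative run, including without male WT PFF (1.85).

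Il10rb (chr16:91406157-91425834), the shared chain, differed less between the populations than Il10ra. In macrophages it ranged from 55.84 to 171.12 FPKM (median 70.85) and in microglia from 31.17 to 180.16 (median 121.33), so the populations overlapped. Its FPKM was higher in microglia in 5 of 7 combinations, but after TMM scaling it was lower in microglia in 7 of 7, with a fitted log2 fold change of -0.93 ± 0.19 (SE, adjusted p = 0.00456), which misses the threshold of 1. On log2(FPKM + 1), limma gave 0.46 with an adjusted p of 0.427, so the direction depends on the scaling. In macrophages the median FPKM of Il10rb was above that of Il10ra (10.47), with the ranges overlapping through male WT PFF alone, while in microglia Il10ra had the higher median (183.16) and the ranges overlapped.

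Stat3 (chr11:100886806-100939594), the transcription factor downstream of the receptor, did not pass the test between the populations. In macrophages its FPKM was between 6.17 and 10.47 in 6 libraries and 27.63 in male WT PFF. In microglia it was between 28.92 and 41.38 in the 4 libraries labelled female and in male CD163KO PFF, but 11.12 in male WT MONO and 5.27 in male WT PFF. It was higher in microglia on FPKM in 6 of 7 combinations, while the fitted log2 fold change under TMM was -0.03 ± 0.22 (SE, adjusted p = 0.932) and on log2(FPKM + 1) it was 1.27 (adjusted p = 0.0722, limma). With the TMM factor divided out, its medians were 14.98 in macrophages and 16.65 in microglia.

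Socs3 (chr11:117966079-117970336), the feedback inhibitor with the TTCNNNGAA motif shown above, was higher in microglia. In microglia labelled female it was at 56.80 FPKM in WT MONO, 97.21 in WT PFF, 32.19 in CD163KO MONO (the library with Y-linked counts) and 50.02 in CD163KO PFF. In microglia of males it was at 17.68 FPKM in WT MONO, 6.09 in WT PFF and 54.49 in CD163KO PFF. In macrophages all 7 libraries lay between 4.26 and 8.85 FPKM. Of the microglia tested, only male WT PFF fell into the range of the macrophages on FPKM. After TMM scaling both male WT MONO (4.58 log2 TMM CPM) and male WT PFF (5.27) did, with macrophages from 4.0 to 5.31. The fitted log2 fold change was 1.15 ± 0.26 (SE, adjusted p = 0.00792), with microglia higher in 7 of 7 combinations after TMM scaling. With the excluded male CD163KO MONO libraries included, it was 0.998 and just under the threshold of 1.

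Il4ra (chr7:125552271-125579474), the chain shared by the receptors for IL-4 and IL-13, was present in both populations. In macrophages it was between 6.12 and 13.09 FPKM in 6 libraries and 34.26 in male WT PFF. In microglia it was between 16.93 and 45.22 FPKM in 6 libraries and 8.23 in male WT PFF. Its FPKM was higher in microglia in 6 of 7 combinations, while the TMM scaling gave a log2 fold change of -0.35 ± 0.24 (SE, adjusted p = 0.33) and limma on log2(FPKM + 1) gave 0.97 (adjusted p = 0.128). Neither passed the test, and the signs differ.

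Retnla (chr16:48842609-48844461), which carries TTCNNNNGAA in the window above, had the highest median of the members in macrophages. In macrophages of females it was at 47.74 FPKM in WT MONO, 31.80 in WT PFF, 118.06 in CD163KO MONO and 97.63 in CD163KO PFF. In macrophages of males it was at 202.75 FPKM in WT MONO, 214.46 in WT PFF and 21.67 in CD163KO PFF. On FPKM the highest and the lowest of these libraries were male, and the levels spanned WT and CD163KO alike. After TMM scaling the highest was female CD163KO MONO (7.14 log2 TMM CPM), above male WT MONO (6.95) and male WT PFF (6.48). The lowest was still male CD163KO PFF (4.84). In microglia it was at 2.90 FPKM in female CD163KO PFF (27 counts), 0.81 in female WT PFF (7 counts) and 0 in the other 5 libraries. Relative to the summed totals, the macrophage level was 169-fold the microglia level (6685 counts against 34), with an exact 95% interval from 121 to 244 for counting error only. Without male WT PFF it was 109.5-fold (78.2 to 158), and without female CD163KO PFF, which held 27 of the 34 microglia counts, it was 688-fold (334 to 1711). The fitted log2 fold change was -9.91 ± 1.04 (SE, adjusted p = 7.23e-05).

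**Figure D2:**
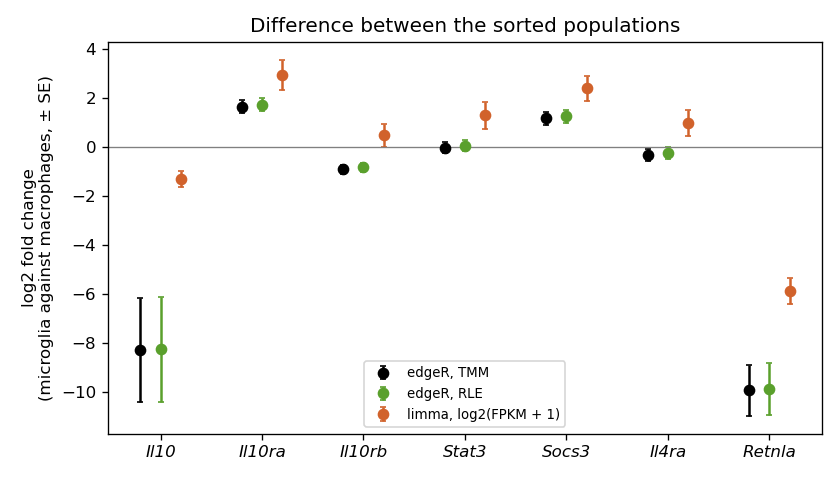
Log2 fold change of microglia against macrophages (vertical axis) for the 7 members tested, ± SE, over 14 libraries, from edgeR with TMM or RLE factors and from limma on log2(FPKM + 1). Il10ra and Socs3 lie above 0 and Il10 and Retnla below 0 in all 3 fits, whereas Il10rb, Stat3 and Il4ra change side with the scale.

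The wider lists gave the surroundings of these genes. Their counts and medians are given under TMM scaling alone, and the scale set the sign of Il10rb, Stat3 and Il4ra above. Whether the smaller medians keep their sign on FPKM was not tested. Of 20 further genes of IL-10 and STAT3 signalling, all tested, 1 was called higher and 7 lower in microglia (median log2 fold change -0.80). Of the 17 that met the filter in each population alone, 1 was called higher and 6 lower (median -0.48). The largest of these differences were in Pim1, a STAT-induced kinase that met the filter through macrophages alone (-5.44 ± 1.33), Il1rn, the interleukin 1 receptor antagonist (-4.74 ± 0.60), and Nfil3, a transcription factor induced by IL-10 (-3.47 ± 0.79). Of that list, Dusp1 and Zfp36 are also immediate early genes, which respond to cell isolation. Of the 12 immediate early genes, 8 were called lower in microglia and none higher (median -1.73). Lists of other cells in the macrophage gate were also lower, with 11 of 12 neutrophil genes (median -6.80), 7 of 8 monocyte genes (median -7.44) and 11 of 12 border-associated macrophage genes (median -7.53) called so. The remaining neutrophil gene was called higher. In microglia alone 11 neutrophil, 5 monocyte and 11 border-associated macrophage genes met the filter, and those that did not had to differ. The part of these lists in the differences here was not tested.
Of 24 further genes of IL-4 and IL-13 signalling and alternative activation, 22 were tested, 1 was called higher and 10 lower in microglia (median -3.13), led by Ccl17, a chemokine (-11.01 ± 0.71), Clec10a, a lectin (-10.90 ± 0.85), and Pparg, a nuclear receptor (-9.45 ± 1.38). These 3 genes met the filter through macrophages alone and had to differ, as did 2 others of the 10. Of the 14 that met it in each population alone, 1 was called higher and 5 lower (median -0.58). Mrc1 is also on the border-associated macrophage list, and Fn1 and Chil3 are on the monocyte list. Of 11 ligands of these receptors and related cytokines, 3 were tested and 1 was called lower in microglia, Osm (oncostatin M, -2.45 ± 0.38). Il13, Il19, Il20, Il22 and Il24 had no count in any macrophage library tested. Il4, named after its values were seen, had 111 counts in 6 macrophage libraries (0 to 7.51 FPKM) and none in the microglia tested. It was highest in male WT MONO, where the 7 mast cell, eosinophil and basophil genes also had their highest sum (820.4 FPKM, against 65.8 to 416.2 in the others), and the part of those cells was not tested.

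In each population, the levels were then compared between PFF and MONO, CD163KO and WT, and males and females, in fits with all 3 as terms over 7 libraries. Of all genes tested, 0 (0%) were called for PFF against MONO in either population, 0 (0%) for CD163KO against WT in microglia, and 0 (0%) for sex in either. For CD163KO against WT in macrophages 1 of 10430 genes (0.00959%) was called, which was Cd163. At an unadjusted p under 0.05 there were 119 genes for PFF, 75 for CD163KO and 137 for sex in macrophages, and 128 for CD163KO and 188 for sex in microglia. Each is a smaller share of the genes tested than the 0.05 expected by chance. The counts by DESeq2 and limma stand with the alternatives. Without female WT MONO not even Cd163 was called (0 genes). No member was called in any of these 6 comparisons by edgeR's quasi-likelihood test, DESeq2 or limma. With 7 libraries this does not show that the members did not differ.

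In microglia, all 5 members tested had positive fitted differences for PFF against MONO, between 0.38 and 1.01 on the log2 scale, beside a median of 0.11 over all genes. At an unadjusted p under 0.05, 723 of 11373 genes differed, and Il4ra and Socs3 were among them. For Il4ra the log2 fold change was 0.94 ± 0.27 (SE, adjusted p = 0.759), and PFF exceeded MONO after TMM scaling in each of the 3 matched pairs, by 0.70 to 0.99. For Socs3 it was 1.01 ± 0.40 (SE, adjusted p = 0.759), again with 3 of 3 pairs higher, by 0.65 to 0.87. Stat3 gave 0.67 ± 0.39, Il10ra 0.58 ± 0.50 and Il10rb 0.38 ± 0.32. On FPKM the male WT pair went the other way for all 5 genes, for instance from 17.68 in MONO to 6.09 in PFF for Socs3, and limma on log2(FPKM + 1) gave 0.34 for Il4ra and 0.39 for Socs3. All 12 immediate early genes also had positive differences in this comparison (median 1.02, none called). Their summed FPKM was highest in female WT PFF microglia (6606), the library with the highest Socs3. It was lowest in male WT PFF (1177), the library with the lowest Socs3 on FPKM of those tested. After TMM scaling Socs3 was lowest in male WT MONO (4.58 log2 TMM CPM), with male WT PFF at 5.27. The 12 microglia genes likewise all had positive differences (median 0.59, none called), as did 5 of 6 oligodendrocyte genes (median 0.97), beside a median of 0.67 for the 5 members. The part of these genes in the members' values was not tested.

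**Figure D3:**
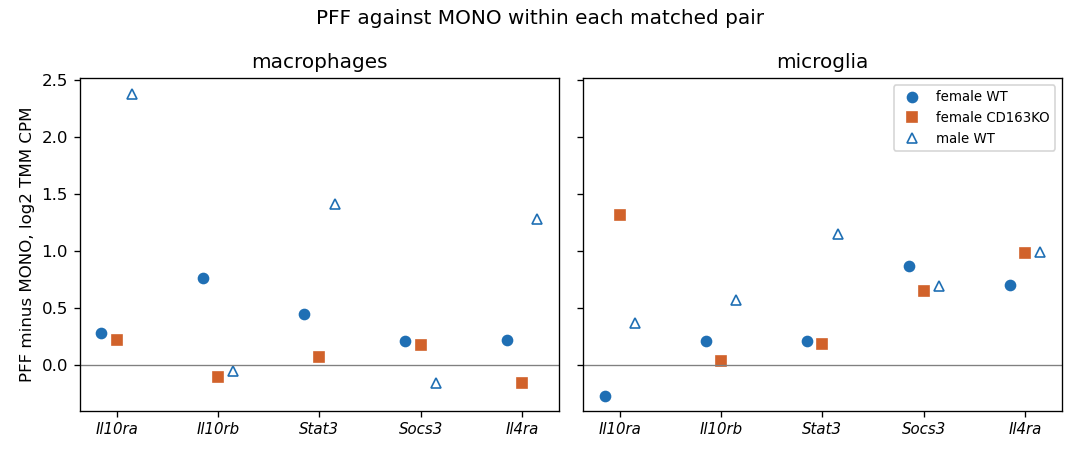
PFF minus MONO in log2 TMM CPM (vertical axis) for 5 members in the 3 matched pairs of each population (circles female WT, squares female CD163KO, open triangles male WT). In microglia all 3 pairs lie above 0 for Il10rb, Stat3, Socs3 and Il4ra, and no gene passed the adjusted test.

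In macrophages, PFF against MONO gave log2 differences from -0.63 ± 0.61 (Retnla) to 0.96 ± 0.52 (Il10ra), the latter with 3 of 3 pairs higher after TMM scaling but by 0.22, 0.28 and 2.38, of which the largest was the male WT pair, and without male WT MONO the fitted difference was 0.27. Stat3 likewise was higher in 3 of 3 pairs (0.70 ± 0.42). On FPKM the female WT pair went the other way for both genes, from 17.93 in MONO to 10.18 in PFF for Il10ra and from 10.47 to 6.65 for Stat3. All of these had an adjusted p of 1. The 12 immediate early genes again all had positive differences (median 1.00, none called), while 1 of the 12 neutrophil genes had a positive difference (median -0.72, none called). The part of either list in these values was not tested.

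**Figure D4:**
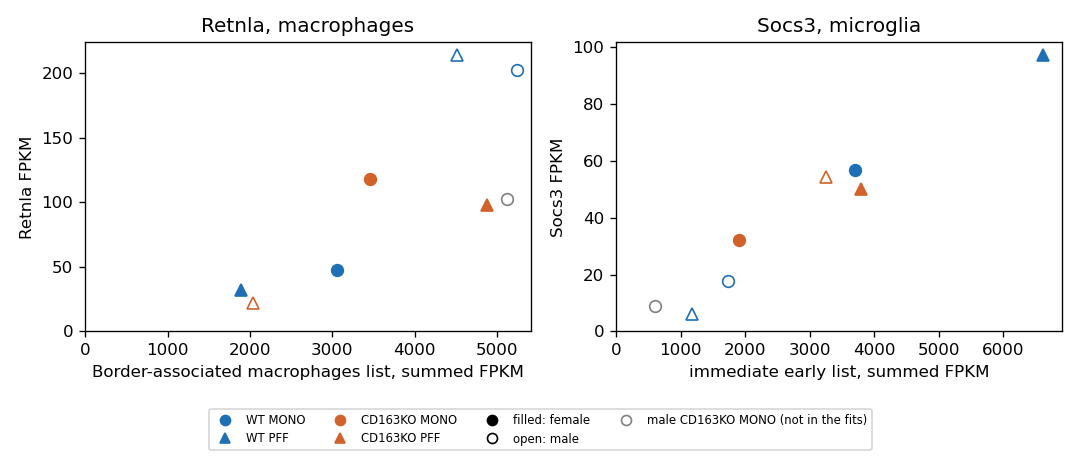
Left, Retnla FPKM in each macrophage library (vertical axis) against the summed FPKM of the 12 border-associated macrophage genes; right, Socs3 FPKM in each microglia library against the summed FPKM of the 12 immediate early genes. Symbols are as in the plot of levels. On this FPKM scale the lowest Retnla values (21.67 and 31.80) lie at the lowest marker sums, and the highest Socs3 (97.21) at the highest immediate early sum. After TMM scaling the lowest Retnla of the libraries tested was in male CD163KO PFF and female WT MONO.

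CD163KO against WT gave small or imprecise differences. In macrophages they ranged from -0.48 ± 0.47 for Il10ra to 1.56 ± 2.38 for Il10. Il10 was higher in CD163KO in both PFF pairs (128 counts against 36 in females and 39 against 0 in males). It was lower in the female MONO pair (13 against 35). The 0 is that of male WT PFF, where Il10 was not listed and fewer genes were found than in the other macrophage libraries tested. Retnla was higher in CD163KO in both female pairs and lower in the male PFF pair, and its fitted difference was 0.24 ± 0.73. On FPKM, Retnla was lowest in the 2 macrophage libraries with the lowest border-associated macrophage sums, male CD163KO PFF (2034) and female WT PFF (1885), and highest in the male WT libraries (5241 and 4508). After TMM scaling it was lowest in male CD163KO PFF (4.84 log2 TMM CPM) and female WT MONO (5.21), with female WT PFF at 5.74. It was then highest in female CD163KO MONO (7.14). The sums were taken on FPKM alone. Female CD163KO PFF had a sum of 4878, between those of the male WT libraries, with a Retnla level of 97.63 FPKM. The part of that cell type's share in the Retnla values was not tested. In microglia the differences ranged from -0.49 ± 0.26 for Il4ra (adjusted p = 1) to 0.22 ± 0.36 for Stat3. None of the 12 immediate early genes (median -0.57) and none of the 12 microglia genes (median -0.49) had a positive difference here. Of the border-associated macrophage genes 1 of 11 did (median -1.01), and of the erythrocyte genes 0 of 5 (median -0.33). By contrast, 5 of 6 astrocyte genes (median 0.13) and 3 of 5 monocyte genes (median 0.26) did. The part of these lists was not tested. The CD163KO libraries there include the one labelled female that carried Y-linked counts, and without it the Il4ra difference was -0.42 ± 0.35. The male WT libraries on the other side had fewer Cd163 counts than any CD163KO microglia.

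Between males and females, all 5 members tested in microglia had negative differences, from -1.0 ± 0.39 for Socs3 (adjusted p = 0.999) to -0.04 ± 0.32 for Il10rb. The libraries labelled female include the one with Y-linked counts, and without it these differences were -1.10 for Socs3 and -0.04 for Il10rb. The immediate early genes also had 0 of 12 positive differences here (median -0.77), while 9 of 11 neutrophil genes (median 1.46), 5 of 5 erythrocyte genes (median 1.16) and 10 of 12 microglia genes (median 0.45) had positive ones, none of them called. In macrophages the differences ran from -1.94 ± 2.02 for Il10 to 0.18 ± 0.73 for Retnla. The females had the higher Il10 in 3 of 3 matched pairs, and the adjusted p was 1. Of these, the WT PFF pair rests on the male library where Il10 was not listed. In the untested CD163KO MONO pair the male had the higher Il10, with 562 counts against 13. In the same comparison all 12 neutrophil genes had positive differences (median 0.72), and none of the 12 microglia genes (median -0.58) or the 7 choroid plexus genes (median -3.42) did, with no gene called. The part of these lists in either population's values was not tested.

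The effect of genotype or treatment was also compared between the populations in 1 model of 14 libraries, and 0 genes (0%) were called in either comparison, with 84 and 123 genes of 12304 at an unadjusted p under 0.05. Retnla and Il10 entered this model through the macrophages alone. Their values are not given here because microglia had 34 counts of Retnla and 1 of Il10 in all. The closing section gives alternatives of the Retnla value, which have the same limit. The other 5 members lay between -0.34 ± 0.66 (Il10ra) and 0.75 ± 0.60 (Socs3) for PFF against MONO, and between -0.70 ± 0.52 (Il4ra) and 0.39 ± 0.53 (Stat3) for CD163KO against WT, each with an adjusted p of 1 by edgeR.

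The genes most like a member across libraries were sought for the 5 members with a mean of at least 1 CPM and 1 FPKM in both populations, which leaves out Il10 and Retnla. They were sought among 10003 genes by Pearson's r of log2 TMM CPM over 14 libraries, after each population's mean was removed. This is a description over libraries that share scaling, depth and composition, and it has no p. Il10ra was most like Fermt3 (0.937), Cnot3 (0.932) and Cabin1 (0.915). Stat3 was most like Man2b2 (0.939), Rnpep (0.925) and Galnt10 (0.917). Socs3 was most like Rnf145 (0.901), Lrch4 (0.893) and Tsc22d4 (0.889). Il4ra was most like Zbtb46 (0.909), Zfp362 (0.876) and Miip (0.855), and Il10rb was most like the ribosomal protein genes Rpl36 (0.884) and Rpl13 (0.863) and Tspan31 (0.843). Among the members, r was highest between Il10ra and Stat3 (0.78), followed by Stat3 and Socs3 (0.73) and Il10ra and Il4ra (0.71), and lowest between Il10rb and Il4ra (0.39).

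In order of median FPKM, macrophages had Retnla (97.63), Il10rb (70.85), Il4ra (10.75), Il10ra (10.47), Stat3 (6.85), Socs3 (5.76) and Il10 (1.33). Every neighbour in this order overlapped the next in range but Il10rb and Il4ra. Microglia had Il10ra (183.16), Il10rb (121.33), Socs3 (50.02), Stat3 (32.62), Il4ra (29.78) and, both with a median of 0, Retnla and Il10. The ranges of Retnla and Il10 overlapped each other and lay below that of Il4ra, and the other neighbours overlapped. Retnla had the highest median in macrophages, and in microglia it was at 0 in 5 of 7 libraries.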

How the data were processed

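The authors mapped reads with Bowtie2 and estimated expression with RSEM, on mm10 per the labels. The deposited tables hold, for each RefSeq transcript, an estimated count without normalization and an FPKM scaled to transcript length and assigned reads. A transcript that a table does not list was set to 0. Symbols from the RefSeq table of GRCm38.p6 named 99.4% of 27787 transcripts, which were summed to 18580 genes, and the unnamed share of counts reached 0.128% in 1 library. Estimated counts were rounded to whole numbers.

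The members and gene lists were chosen with earlier results of these data known, and 1 gene of the rule is not reported here. The main test was the quasi-likelihood test of edgeR 4.0.16 with TMM factors (R 4.3.3), over genes at 1 CPM or more in at least 3 libraries, with Benjamini-Hochberg adjustment; genes with an adjusted p of at most 0.05 and a log2 fold change of at least 1 were called. SE is the log2 fold change divided by the root of F. The population fit had the combination as a block (14 libraries), and fits within a population had sex, genotype and treatment as terms (7 libraries). Matched differences and likeness used log2 CPM with a prior count of 2. The smaller the count, the larger the error. Alternatives were RLE factors, no filter, DESeq2 1.42.0, limma 3.58.1 on log2(FPKM + 1) and log2(FPKM + 0.1), the excluded libraries included, an adjusted p alone, no block, no sex term, and each library left out in turn. The female library with Y-linked counts was left out as an alternative too, which is the same fit as its turn among those left out, and its values are counted under both settings. Libraries of different combinations stand in for replicates, and whether they came from separate mice is not given in the sources used here, so p-values measure only the spread between these libraries. The batch correction and outlier removal named in the methods were not repeated here, and the sources used here do not give the batch of a table. The named genes were the 7 members, the 3 called genes with the largest change in each list, and the 3 genes most like each of the 5 members with a mean of at least 1 CPM and 1 FPKM in both populations. The procedure was tested on simulated counts in which all libraries shared the same gene means apart from the changes put in. That test does not cover scaling between libraries that differ in composition, as these do. Python 3.11.15 with pandas 2.3.3, numpy 2.4.6, scipy 1.17.1 and matplotlib 3.10.9 were used for the rest.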

Additional observations from a re-analysis of the deposited data

Results flagged for a closer look

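Stat3 in male WT MONO was set apart from the other libraries of its population in both populations, by a gap to the nearest value of 0.571 of the range in macrophages (5.13 log2 TMM CPM) and 0.591 in microglia (4.64 log2 TMM CPM). On FPKM it was not the lowest library of either population, at 6.85 in a range of 6.17 to 27.63 in macrophages and at 11.12 in a range of 5.27 to 41.38 in microglia. Of 12 such groups, chance flags about 1 in 20.

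The male CD163KO MONO macrophages, which the study excluded and which entered only an alternative of each comparison, were above all 7 other macrophage libraries on FPKM in 4 members. Il10 was at 23.67 FPKM, against 0 to 8.46 in the others, on 562 counts. Stat3 was at 80.01 FPKM against 6.17 to 27.63, Il10rb at 247.48 against 55.84 to 171.12, and Socs3 at 19.04 against 4.26 to 8.85. The 10 most abundant genes took 16.6% of the counts of this library. Its TMM factor of 1.567 was the highest of the macrophage libraries. With the factor divided out, it was still the highest of the 8 for Il10 (15.11) and Stat3 (51.06), whereas the highest Il10rb (179.2) and Socs3 (14.59) were those of other libraries.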

How the results depend on the processing

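The call of Il10ra between the populations held under every alternative run, and no member was called under any of them in the other comparisons. Il10 lost its call when 1 of 5 combinations was left out, and Socs3 (0.998) did with the excluded male CD163KO MONO libraries included, where Il10rb (-1.03) gained a call. Il10rb was also called on the adjusted p alone. Of 410 alternative values of the 27 member differences followed, 29 changed sign, and the cause was not tested. Between the populations these were Il10rb (0.464 and 0.461), Stat3 (1.347 and 1.274) and Il4ra (1.028 and 0.971) with limma at pseudocounts of 0.1 and 1, and Stat3 with DESeq2 (0.049), RLE factors (0.049) and no filter (0.315). Limma at these pseudocounts also turned Il10rb for PFF in microglia (-0.219 and -0.214) and Il4ra for CD163KO in microglia (0.048 and 0.035). Including the excluded libraries turned Stat3 for PFF in macrophages (-0.071), Retnla for sex in macrophages (-0.321) and the population difference of Il10ra in the PFF effect (0.109), and DESeq2 turned that of Retnla in the CD163KO effect (-0.431), a difference that rests on 34 microglia counts.

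Leaving out each library or combination in turn also changed signs, with ranges of -0.101 to 0.085 for Stat3 between the populations, -0.329 to 0.481 for Stat3 in CD163KO microglia, -0.325 to 0.239 for Il10rb by sex in microglia, -0.486 to 1.17 for Retnla by sex in macrophages, -1.352 to 1.147 for the population difference of Retnla in the CD163KO effect and -1.281 to 0.215 for that of Il10ra in the PFF effect.

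The number of genes called between the populations was 2376, and 4228 with DESeq2, 5737 and 6513 with limma at pseudocounts of 1 and 0.1, and 1758 (without female WT PFF) to 4048 (without male WT PFF) when a combination was left out. The main fit called 893 higher and 1483 lower in microglia, while DESeq2 called 2308 higher and 1920 lower. Limma called 5143 higher and 594 lower at a pseudocount of 1, and 5808 and 705 at 0.1. For CD163KO in macrophages it was 3 and 5 with limma at pseudocounts of 1 and 0.1, and 0 to 1 when a library was left out. For PFF in macrophages it was 4 with DESeq2 and 1 and 4 with limma. For sex in macrophages it was 1 without a filter, 16 with DESeq2, 5 and 10 with limma and 1 with the excluded libraries. In microglia, CD163KO gave 19 without a filter and 2 with DESeq2, and PFF gave 11 without a filter, 30 with DESeq2 and 0 to 1 with a library left out. Sex in microglia gave 6 without a filter, 15 with DESeq2, 3 and 3 with limma, and 0 to 1 with a library left out, among these 1 without the female library with Y-linked counts. The difference between populations gave 25 (CD163KO) and 32 (PFF) with DESeq2, and 0 to 1 for PFF with a combination left out. No paired analysis was possible because the labels give no replicate numbers, which concerns pairing by number alone: the populations were matched by combination, and without that block 2687 genes were called. Il10 and microglial Retnla are limited by the few counts of these genes.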
